A study of Mus musculus with 864 samples.

Results

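The mitochondrial genome contributed 37 rows to the table of this series, every row whose name starts with mt-, out of 25333 gene and repeat rows. They comprise 13 protein-coding transcripts, 2 ribosomal RNAs and 22 transfer RNAs. The rows were taken by name, so no measured value chose them. They are described over 694 of the 799 wells labelled as a single cell, those with 1000 or more genes above 0, with 17 empty wells and 15 wells of medium only beside them. The cells were dissociated from lumbar dorsal root ganglia of C57/Bl6 mice aged 6 to 8 weeks, with no genotype or treatment named, and were picked by hand into plates in 3 sessions. Session A (plates L128, L129 and L130; both sexes) and session B (L141 and L142; males only) were picked at room temperature. Session C (L226 to L228, L281 and L282; both sexes) was picked on a cooled stage. Session and sex define 5 preparations, which serve as replicates below. The labels name no animals, so p-values measure only the spread between these preparations, which may be technical.

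Mammalian mitochondria carry a small circular genome that is transcribed from both strands as long precursors, from which transfer RNAs are cut out to release the messenger and ribosomal RNAs. Its messenger RNAs all encode subunits of the respiratory chain and ATP synthase. The remaining subunits and the proteins that express this genome are encoded in the nucleus and imported. Primary sensory neurons have long axons and a high demand for ATP. The share of a cell's reads that maps to mitochondrial transcripts is also widely read as a quality measure in single-cell libraries.

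The libraries were 5′-end tagged, so reads mark the starts of transcripts. All 37 rows matched a record in GENCODE M21 (build GRCm38), which is not the build used by the authors (mm9), so the records are used here for sequence and length only. The first 30 bases of the messenger RNA records on which the results turn are shown, since such a library tags the starts of transcripts. The records of mt-Atp6 and mt-Nd4 begin inside those of mt-Atp8 and mt-Nd4l, so their first bases need not be tagged ends. Capitals mark the first codon of the recorded coding sequence. The 16S ribosomal RNA mt-Rnr2 has no codon and is in lower case throughout, as are 2 transfer RNAs described below.
mt-Co1: ATGttcattaatcgttgattattctcaacc
mt-Nd5: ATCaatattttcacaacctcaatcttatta
mt-Nd6: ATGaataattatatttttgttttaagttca
mt-Atp8: ATGccacaactagatacatcaacatgattt
mt-Atp6: ATGaacgaaaatctatttgcctcattcatt
mt-Nd4l: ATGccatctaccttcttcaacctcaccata
mt-Nd4: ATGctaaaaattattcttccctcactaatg
mt-Rnr2: actaatcctagccctagccctacacaaata
mt-Tm: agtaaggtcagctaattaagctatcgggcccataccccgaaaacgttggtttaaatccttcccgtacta
mt-Tw: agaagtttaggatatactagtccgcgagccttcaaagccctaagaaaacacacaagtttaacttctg

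Some of these messages share bases in pairs, and the reads of such a pair are hard to assign. The last 43 bases of mt-Atp8 are the first 43 of mt-Atp6, shown with the start codon of mt-Atp6 in capitals.
mt-Atp8 and mt-Atp6 overlap: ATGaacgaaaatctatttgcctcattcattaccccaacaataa
The last 7 bases of mt-Nd4l are likewise the first 7 of mt-Nd4. How the authors counted reads in shared bases, and reads that also match nuclear copies of mitochondrial DNA, is not given in the sources used here, so the split within these pairs is uncertain. In 9 of the 13 recorded coding sequences the first codon was ATG.

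Depth differed by session, with a median of 15509 reads per kept well in session A, 198656 in session B and 1764820 in session C. The values are reads per 1000000 (RPM), so a row's level is a share of its own well. The summed share of the 37 rows had a median of 0.937% over the 694 wells and ranged from 0%, in 1 well, to 16.4%. Protein rows held 74.7% of the summed RPM, ribosomal rows 24.7% and transfer RNA rows 0.558%. mt-Co1, encoding the catalytic subunit of cytochrome c oxidase, and mt-Rnr2 together held 53.96%.

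One plate stood apart before any class was considered. On L128 the median share was 6.17%, and 84 of its 87 kept wells exceeded 2%. On the other plates the medians ran from 0.332% on L226 to 1.44% on L282, so that L128 lay 9.34-fold above the median of those plates. L129 and L130, of the same session and of like depth, had medians of 0.661% and 0.574%. The difference was also seen within 1 class. TH-like wells alone, described below, had a median of 6.03% on L128 (22 wells) against 0.232% to 0.924% on the other plates. The summed pan-neuronal marker level of L128 wells was 17885 RPM. It was between 13708 and 28304 RPM on the other plates, and the lowest of these was L282. In TH-like wells alone L128 had the lowest sum of all plates. It was 15579 RPM there and between 20210 and 30305 RPM on the other plates. All L128 wells were male and of session A, so the class, sex and cooling results are given with and without this plate. Without it the median share over 607 wells was 0.783%, and mt-Co1 and mt-Rnr2 held 43.5% of the summed mitochondrial RPM.

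**Figure D1:**
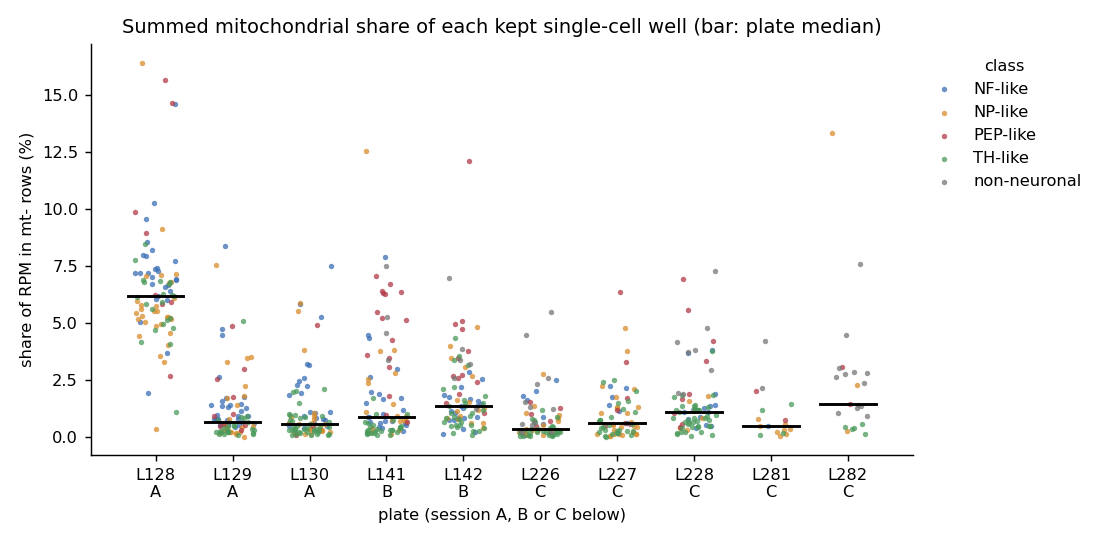
Each point is 1 kept single-cell well, placed by plate (x axis, with its session) and by its share of RPM in mt- rows (y axis, percent), coloured by class. The bar is the plate median, 6.17% on L128 and between 0.332% and 1.44% on the other plates.

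The excess on L128 was uneven between rows. mt-Co1 averaged 27743 RPM on L128, 9.47-fold the median of the other plates' means (2930 RPM), and mt-Rnr2 averaged 17484 RPM, 7.26-fold theirs. mt-Nd5 and mt-Rnr1, the 12S ribosomal RNA, were 5.61-fold and 6.43-fold higher. mt-Nd2 was 1.51-fold higher, mt-Atp8 1.61-fold, and mt-Nd3, a small complex I subunit, was at 62.4 RPM on L128 and 62.2 RPM at the median of the others. Plate L282 differed in another way. Its mt-Rnr2 mean of 12584 RPM was the nearest to L128, while its mt-Co1 mean of 525 RPM was the lowest of the 10 plates. On L282, 13 of 23 kept wells were non-neuronal, and the immune list (9 genes) summed to 5493 RPM and the red blood cell list (5 genes) to 38492 RPM there. The part of these cells in the mt-Rnr2 level was not tested. mt-Nd5 on L282 averaged 3268 RPM, and 1 well of that plate, with 20172 reads, held 72378 RPM of it.

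**Figure D2:**
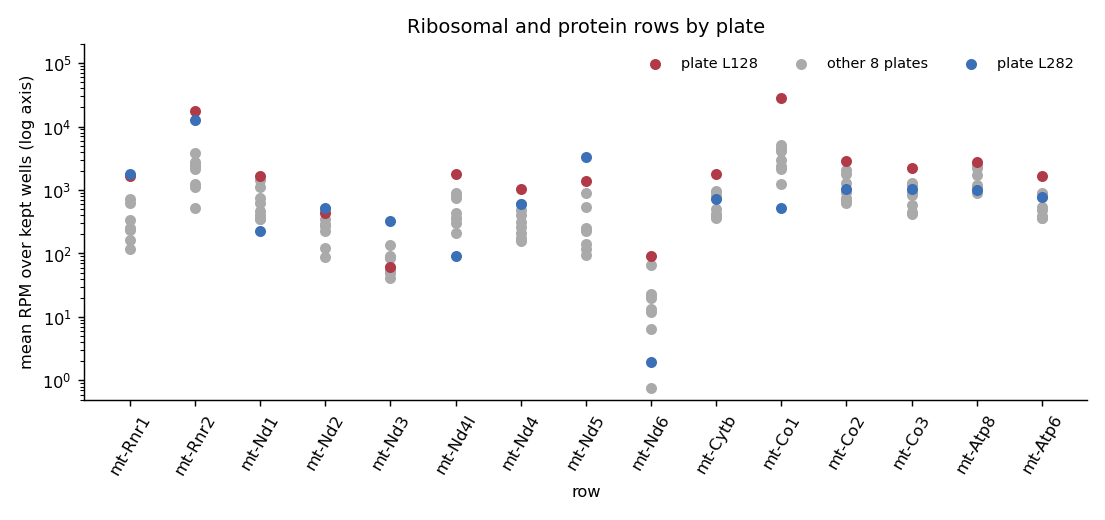
Mean RPM over kept wells (y axis, log scale) of the 2 ribosomal and 13 protein rows (x axis), 1 point per plate, with L128 in red, L282 in blue and the other plates in grey. L128 is highest for mt-Co1 (27743 RPM) but lies among the other plates for mt-Nd3 (62.4 RPM).

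Levels of the protein rows spanned a wide range. Levels of different rows are compared per length, as mean RPM per kb of the recorded transcript over the 694 wells, although 5′ tags need not scale with length. mt-Atp8, a small ATP synthase subunit, was highest at 9573 RPM per kb, followed by mt-Co1 at 4246 and mt-Nd4l, a small complex I subunit, at 2168. Without L128 these were 9009.7, 2281 and 1618 RPM per kb, mt-Rnr2 was at 1659.96 instead of 2837, and mt-Co2 (1721) stood above mt-Nd4l. Not divided by length, mt-Co1 was the highest protein row at 6560 RPM, with mt-Atp8 at 1953 and mt-Nd4l at 644 RPM. By that measure mt-Co1 was at 3524 and mt-Atp8 at 1838 RPM without L128. The other oxidase subunits mt-Co2 and mt-Co3 stood at 2022 and 1234 RPM per kb, the ATP synthase subunit mt-Atp6 at 1083, and mt-Cytb, the cytochrome b of complex III, at 684. Of the large complex I subunits, mt-Nd1 was at 877, mt-Nd4 at 318, mt-Nd5 at 315 and mt-Nd2 at 307 RPM per kb. mt-Nd6 was lowest of the protein rows at 55.4 RPM per kb. It is the 1 protein gene encoded on the opposite strand from the rest.

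mt-Co1 had reads in 98.3% of wells, mt-Atp8 in 97.1% and mt-Co2 in 95.7%, while mt-Nd3 had them in 50.3% and mt-Nd6 in 31.8%. Of the 32 control wells, 16 had mt-Co1 reads, 20 had mt-Atp8 reads and 1 had mt-Nd6 reads. Of the ribosomal RNAs, mt-Rnr2 stood at 2837 RPM per kb and was seen in 95.1% of wells, and mt-Rnr1 at 597 RPM per kb and in 72.3%. Such shares of wells depend on depth and are not compared between sessions.

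The transfer RNA rows were sparse. The most often seen were mt-Te in 28.1% of wells, mt-Ti in 22.5%, mt-Tw in 18.9% and mt-Tt in 12.7%, the transfer RNAs for glutamate, isoleucine, tryptophan and threonine. mt-Tl1 had no read in any of the 694 wells, which allows a share of wells of up to 0.432% by counting error alone, and mt-Tq was seen in 1 well. Transfer RNAs carry no long poly(A) tail, and the labels describe priming from an oligo(dT) primer. Over the class means tested below, 23 of the 37 rows passed the filter of a mean of 5 RPM, namely all 13 protein rows, both ribosomal rows and 8 of the 22 transfer RNAs. The other 14 rows, all transfer RNAs, were not tested. mt-Tf and mt-Tm passed only through their level in non-neuronal wells.

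Cells were classed without the mitochondrial rows, from the remaining genes rescaled to their own total. The clustering settings were chosen with mitochondrial shares by class in view, so the classes were not set independently of those shares. Clusters were named from marker lists as neurofilament-rich (NF-like), non-peptidergic (NP-like), peptidergic (PEP-like), tyrosine hydroxylase-rich (TH-like) and non-neuronal. The TH-like class was the largest with 253 wells, and the PEP-like class had 75 and the non-neuronal class 46. The pan-neuronal marker genes (8 listed) summed to 21783 RPM in PEP-like and 24227 RPM in TH-like wells. The non-neuronal wells form 1 cluster that carried satellite glia, fibroblast and immune markers together, and they came from sessions B and C only.

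The mitochondrial share ordered the classes. It was lowest in TH-like wells, intermediate in NF-like and NP-like wells and highest in PEP-like and non-neuronal wells. TH-like wells averaged 2.10% in males and 0.818% in females of session A, 0.859% in session B, and 0.773% in males and 0.299% in females of session C. In the same order NF-like wells averaged 4.16%, 1.59%, 1.499%, 1.3996% and 1.34%, and NP-like wells 3.38%, 1.70%, 1.90%, 1.15% and 0.566%. TH-like wells were thus below both in 5 of 5 preparations. The ratio of NF-like to TH-like wells had a geometric mean of 2.23, and that of NP-like to TH-like wells 1.84. Without L128 these were 2.51 and 1.92, again with TH-like wells lower in 5 of 5 preparations. PEP-like wells averaged 4.51%, 4.19%, 2.34% and 0.977% in session A males, session B males and the 2 sexes of session C, and were above TH-like wells in 4 of 4 preparations, with a geometric mean ratio of 3.19 (3.57 without L128, 4 of 4). Non-neuronal wells averaged 4.18% in session B and 3.09% and 1.64% in males and females of session C.

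Not all classes separated in every preparation. NF-like wells exceeded NP-like wells in 3 of 5 preparations, PEP-like exceeded NF-like wells in 3 of 4 (2 of 4 without L128), and non-neuronal exceeded PEP-like wells in 2 of 3. PEP-like wells exceeded NP-like wells in 4 of 4. The class means over preparations were 0.971% ± 0.673 (SD, n = 5) for TH-like, 1.74% ± 1.06 (SD, n = 5) for NP-like, 2.00% ± 1.21 (SD, n = 5) for NF-like, 3.00% ± 1.65 (SD, n = 4) for PEP-like and 2.97% ± 1.28 (SD, n = 3) for non-neuronal wells. Without L128 they were 0.650% ± 0.241, 1.27% ± 0.539, 1.53% ± 0.185, 2.30% ± 1.38 and 2.97% ± 1.28 in the same order. The order of TH-like wells held on most plates with 3 or more wells of each class: they were lower than NF-like wells on 7 of 8 plates, than NP-like wells on 8 of 10, than PEP-like wells on 8 of 8 and than non-neuronal wells on 5 of 5. The median well had a share of 0.463% in the TH-like, 0.8286% in the NP-like, 1.3998% in the NF-like and 2.68% in the PEP-like class. Without L128 the medians were 0.42%, 0.597%, 1.12% and 2.41%. The summed share was given no test, because it is a score over the chosen rows.

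**Figure D3:**
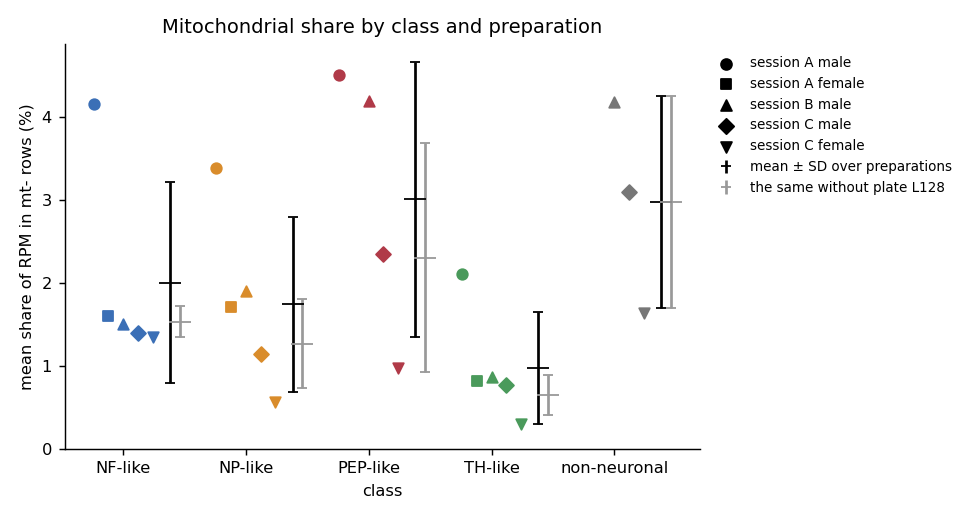
Mean share of RPM in mt- rows (y axis, percent) of each class (x axis), 1 marker per preparation with 3 or more wells. Bars give the mean ± SD over preparations, in black with all plates and in grey without L128. TH-like wells lie at 0.971% on average, below the NF-like and NP-like markers of the same preparation in each case.

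TH-like neurons, the low-threshold mechanoreceptors of hairy skin that express Th, had lower levels of 12 mitochondrial rows than the mean of the other 3 neuron classes. The 12 were 10 of 13 protein rows and both ribosomal rows, of 23 rows tested with limma on log2(mean RPM + 5), with Benjamini-Hochberg adjustment over all genes. Of all 10466 genes tested, 1.79% were called lower in this comparison. The median difference was -1.08 (log2) over the tested members and 0.09 over all genes.

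mt-Co1 averaged 9482, 2879.8, 2166, 1719 and 952 RPM in TH-like wells of the 5 preparations (both sexes of session A, males first, then session B, then both sexes of session C, males first). In NF-like wells the same preparations gave 17131, 5313, 4188, 2782 and 4471 RPM. TH-like wells were lower than NF-like wells in 5 of 5 preparations, than PEP-like wells in 4 of 4 and than NP-like wells in 4 of 5, the exception being session C males (1719 against 1669.6 RPM). The difference from the mean of the other classes was -1.09 ± 0.19 (log2, SE; 2.13-fold lower; adjusted p = 0.000732). mt-Co3, the third oxidase core subunit, fell by 1.22 ± 0.21 (SE; adjusted p = 0.000691) and mt-Co2 by 1.15 ± 0.23 (SE; adjusted p = 0.00327).

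mt-Cytb was at 561, 144.9, 399, 373 and 191.9 RPM in TH-like and at 1341, 793, 858, 937 and 788 RPM in NF-like wells, with no overlap between these classes. NP-like wells, at 829, 851, 801, 364 and 217.9 RPM, overlapped the TH-like range and were above TH-like wells in 4 of 5 preparations. It fell by 1.44 ± 0.25 (log2, SE; 2.71-fold; adjusted p = 0.000871). Among complex I subunits mt-Nd4 fell by 1.39 ± 0.25 (SE; adjusted p = 0.00108) and mt-Nd5 by 1.71 ± 0.37 (SE; 3.27-fold; adjusted p = 0.00626). Without the NP-like well of L282 that was highest in mt-Nd5, the mt-Nd5 difference by limma was -1.45 (adjusted p = 0.00637). mt-Atp8 fell by 1.09 ± 0.23 (SE; adjusted p = 0.00511) and mt-Rnr2 by 1.49 ± 0.28 (SE; adjusted p = 0.0018). The other 4 called rows differed by between -0.96 and -1.54. mt-Nd6 went the other way without passing the test (0.37, log2; adjusted p = 0.884). All 12 calls were also made without L128. With no preparation block 3 were made, and edgeR and DESeq2 on recovered reads made 9 each.

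PEP-like neurons, which carry Tac1 and Calca and include peptidergic nociceptors, had 3 rows called higher of 23 tested, against 0.984% of all genes. Of the 10 PEP-like markers listed, 6 were raised in this class by 0.5 (log2) or more over the other wells. Cnih3 and Smr2 were under 5 RPM in it. At a clustering resolution of 1.4 the class had 34 wells in place of 75, and a cluster of 54 wells led by Rnf149, S100a9, Tagln and Retnlg stayed unnamed, with no PEP-like marker among its 10 leading genes. mt-Rnr2 averaged 13092, 10267, 4674 and 638 RPM in PEP-like wells of males of session A, of session B, and of males and females of session C. In NP-like wells of these preparations it was at 9141, 2516, 2701 and 129.6 RPM, so the PEP-like value was higher in each. It was higher by 1.79 ± 0.31 (log2, SE; 3.46-fold; adjusted p = 0.00227). mt-Co1 was higher by 0.82 ± 0.21 (SE; adjusted p = 0.0382) and mt-Nd4l by 1.16 ± 0.31 (SE; adjusted p = 0.0489). The median difference was 0.81 over the tested members and -0.20 over all genes, and 22 of the 23 lay above 0.

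The PEP-like count moved with the settings, from 0 with no preparation block to 6 under DESeq2, with 5 without L128. edgeR also called 3 rows, mt-Rnr2, mt-Rnr1 and mt-Nd5, but neither mt-Co1 (adjusted p = 0.176) nor mt-Nd4l (adjusted p = 0.197). PEP-like wells also carried more RNA of some other cell types than TH-like wells, but not by the Schwann list. That list summed to 710 RPM (476 to 887 over preparations) in PEP-like wells against 2144 RPM in TH-like wells. The red blood cell list summed to 15752 RPM on average (range 0 to 59767 over preparations) against 425 RPM in TH-like wells. The satellite glia list (9 genes) summed to 2386 RPM (605 to 5394) against 986 RPM, and the fibroblast list (8 genes) to 2141 RPM (75.4 to 5968) against 209.2 RPM. The immune list summed to 157.8 RPM (6.81 to 596) against 25.7 RPM, with Ptprc, Csf1r, Cx3cr1, Cd68, C1qa and Tyrobp each under 5 RPM in PEP-like wells. The part of these in the mitochondrial levels was not tested.

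NF-like and NP-like neurons had no mitochondrial row past the threshold by limma, with 6.97% and 5.68% of all genes called in either direction. In NF-like neurons, the large myelinated mechanoreceptors and proprioceptors, 6 of 23 rows had an unadjusted p under 0.05, and differences ran from -0.66 to 0.89 with a median of 0.30 (log2). In NP-like neurons, nociceptors and itch neurons with Mrgprd or Mrgpra3, 1 row did, and the median was -0.14. edgeR and DESeq2 called 0 rows in both comparisons. Without L128, mt-Atp6 (0.86 ± 0.25, SE; adjusted p = 0.0372) and mt-Nd4 (0.92 ± 0.26, SE; adjusted p = 0.0355) were called higher in NF-like neurons by limma.

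The classes were not uniform inside. Within NP-like wells, the cluster led by Sst, Nppb and Mrgpra3 had a share of 2.88% ± 0.865 (SD, n = 4 preparations), and the largest cluster, led by Gm765, Tmem233 and Ctxn3, had 1.19% ± 0.63 (SD, n = 5). The first was higher in 4 of 4 preparations that held both, and in 3 of 4 without L128 (2.01% ± 1.25 against 0.996% ± 0.360). A smaller NP-like cluster led by Prkca and Mrgprd had 2.44% ± 2.64 (SD, n = 3), and the Sst cluster was above it in 1 of 2 preparations. Without L128 the Prkca and Mrgprd cluster kept 16 of its 33 wells and had 0.921% ± 0.320 (SD, n = 2). Within NF-like wells, the cluster led by Pvalb, a marker of proprioceptors, had 2.65% ± 0.955 (SD, n = 4) and the cluster led by Pcp4l1 and Fxyd7 had 1.62% ± 1.30 (SD, n = 5). The Pvalb cluster was higher in 4 of 4 preparations, and in 3 of 4 without L128. Another NF-like cluster, led by LOC433944, Cadps2 and Rab3b, had 2.25% ± 1.86 (SD, n = 4). The Pvalb cluster was above that one in 3 of 4 preparations, and in 3 of 4 without L128 (2.06% ± 0.496 against 1.46% ± 0.346). Within TH-like wells, the cluster led by Kcnc2, Sorcs1 and Stac2 had 2.00% ± 2.33 (SD, n = 4), against 0.610% ± 0.295 (SD, n = 5) in the cluster led by Fbp2 and Th and 0.596% ± 0.294 (SD, n = 3) in the cluster led by Gm7271 and Nmt2. It was above the first in 4 of 4 preparations and above the second in 3 of 3. Without L128 it had 0.847% ± 0.327 (SD, n = 3) and was above each in 3 of 3. No test was made between clusters.

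Non-neuronal wells had 10 rows higher and 1 lower than the mean of the 4 neuron classes, of 23 tested, while 8.94% of all genes were called higher and 39.4% lower. The 10 are 7 protein rows, both ribosomal rows and mt-Tm. mt-Tm passed the filter only through these wells, so it had to differ and does not count as a result. RPM are shares of a well's total, and the median difference over all genes was -0.997 (log2) here. Over the tested mitochondrial rows the median was 0.87. edgeR's scaling put the median of all genes at -1.25 and that of the tested mitochondrial rows at 1.597, and DESeq2's put them at 0.71 and 3.02. The median mitochondrial row thus lay above the median gene under all 3 scalings, although mt-Tw and mt-Ti lay below it by limma. The limma median of the mitochondrial rows includes mt-Tf and mt-Tm, which passed the filter only through non-neuronal wells. Those rows lie on either side of that median, so leaving both out does not move it.

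mt-Rnr2 averaged 5643, 12994 and 2190.4 RPM in non-neuronal wells of session B and of males and females of session C. TH-like wells of these preparations had 1197, 789 and 109.9 RPM. The difference from the neuron classes was 2.39 ± 0.35 (log2, SE; 5.26-fold; adjusted p = 1.2e-05). mt-Rnr1 was higher by 2.00 ± 0.50 (SE; adjusted p = 0.00276), mt-Cytb by 1.37 ± 0.31 (SE; adjusted p = 0.00117) and mt-Nd2 by 1.33 ± 0.34 (SE; adjusted p = 0.00318). mt-Nd4 was higher by 1.32 ± 0.31 (SE; adjusted p = 0.00152), mt-Co2 by 1.24 ± 0.28 (SE; adjusted p = 0.00123) and mt-Co3 by 1.17 ± 0.26 (SE; adjusted p = 0.000843).

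mt-Tm, the methionine transfer RNA shown above, is among the 10 rows called higher, but it passed the filter only through these wells (268 RPM, against 1.16 to 4.12 RPM in the neuron classes), so it had to differ and its test is not used here. Only 4 of 46 non-neuronal wells had it, and the highest, a well on L226, had 9348 RPM. Without that well 8 rows, mt-Tm still among them, were called higher and 1 lower, and mt-Rnr1 (1.03; adjusted p = 0.17) and mt-Nd2 (0.45; adjusted p = 0.324) did not pass the threshold. mt-Tw, named after its value was seen, was the row called lower, by 1.54 ± 0.53 (SE; adjusted p = 0.0198), with reads in 3 of 46 wells. The balance of calls turned when medians over wells replaced means: of 14 rows then tested, 3 were called higher (mt-Rnr2, mt-Rnr1 and mt-Co2) and 5 lower. mt-Nd4l, called higher with means, was at -2.79 (adjusted p = 0.00551) and mt-Nd2 at -2.44 (adjusted p = 0.0163), and mt-Co3 and mt-Nd4 also lay below 0. In the non-neuronal wells the dissociation and immediate early genes were counted too: 11 of 15 were higher, where 8.94% of all genes were, with a median difference of 3.04. The 1 lower, Hsp90aa1, a heat shock protein named after its value was seen, was at -1.65 (adjusted p = 6.72e-06). Median depth in these wells was 11920.5, 308894 and 125159 reads in the 3 preparations, against 168002, 1505280 and 2649700 in TH-like wells.

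**Figure D4:**
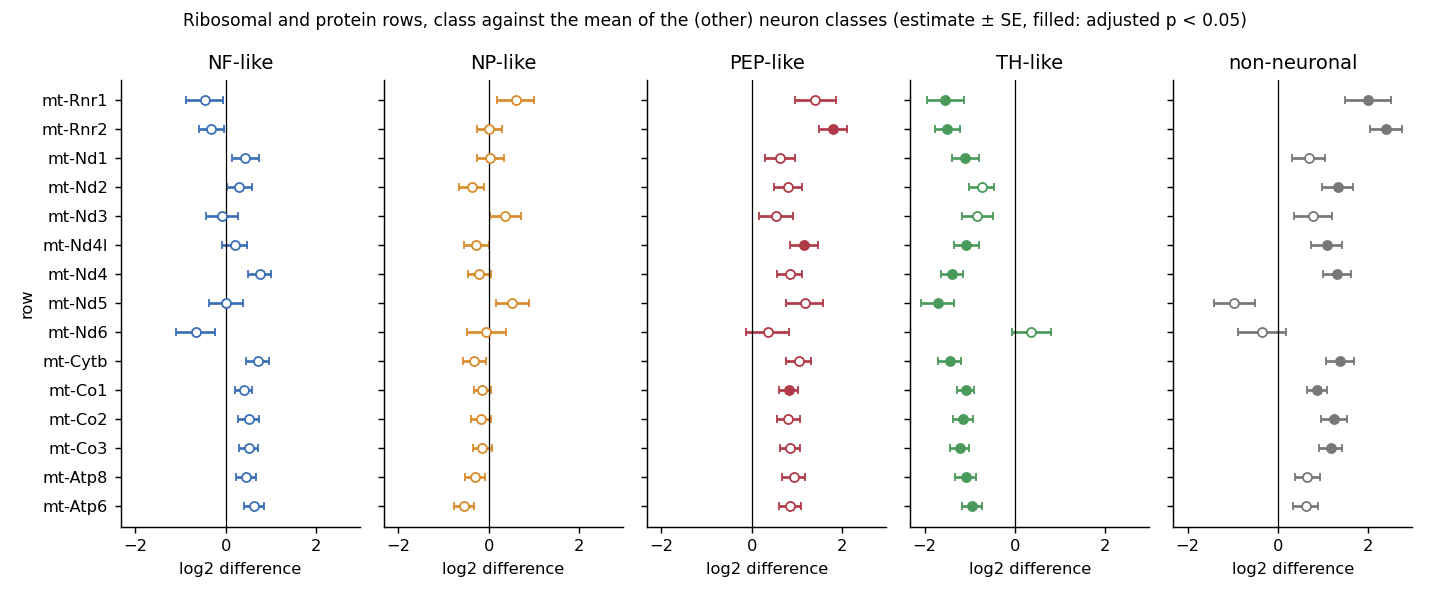
Log2 difference (x axis) of each ribosomal and protein row (y axis) between a class and the mean of the other neuron classes (for non-neuronal wells, the 4 neuron classes), as estimate ± SE from limma. Filled points have an adjusted p under 0.05. In the TH-like panel 12 points are filled, all below 0, and mt-Nd6 lies at 0.37.

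The nuclear genes of the same complexes were counted beside these rows. The list of nuclear subunits of complex I, complex III, cytochrome c oxidase and ATP synthase held 70 genes, of which 69 were tested. In TH-like neurons 0 of 69 were called by limma in either direction, where 4.37% of all genes were; 0 had an unadjusted p under 0.05, edgeR and DESeq2 also called 0, and the median difference was -0.10 (log2). In NF-like neurons 18 of 69 were higher (4.47% of all genes were), with a median of 0.75 and 68 of 69 above 0, but edgeR called 0 and DESeq2 1. In NP-like neurons 5 were lower (2.9% of all genes were), with a median of -0.43, and edgeR called 0 and DESeq2 1. In PEP-like neurons 0 were called by limma (3 had an unadjusted p under 0.05), 0 by edgeR and 1 by DESeq2. Of all genes, limma called 0.984% higher and 0.994% lower there. In non-neuronal wells 52 of 69 were lower by limma, where 39.4% of all genes were, with a median of -1.47 against -0.997 over all genes. There edgeR called 13 lower, where it called 3547 of 13473 genes in either direction. DESeq2's scaling, which put the median of all genes at 0.71, turned the balance to 30 higher and 8 lower. Its share of calls over all genes was not counted. Whether the mitochondrial and nuclear subunits differed in their response was not tested.

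The nuclear genes that transcribe, process and translate mitochondrial RNA (53 listed, 50 in the table, 44 tested by class) had few calls between neuron classes. In TH-like neurons 0 were called by limma, edgeR or DESeq2, 4 had an unadjusted p under 0.05, and the median was 0.10. In NF-like neurons 3 of 44 were higher, near the 4.47% of all genes: Nsun4, a methyltransferase that modifies the 12S ribosomal RNA (1.56 ± 0.37, log2, SE; adjusted p = 0.00868), Gfm1, a mitochondrial translation elongation factor (1.69 ± 0.42, SE; adjusted p = 0.0132), and Esrra, a nuclear receptor that drives mitochondrial genes (1.63 ± 0.46, SE; adjusted p = 0.0314). edgeR called 0 of these and DESeq2 2 in this list. Gfm1 fell in PEP-like neurons by 2.02 ± 0.46 (SE; adjusted p = 0.0189), 1 of 44 where 0.994% of all genes were called lower, and edgeR called 0 in this list. Top1mt, the mitochondrial topoisomerase, fell in NP-like neurons by 1.97 ± 0.54 (SE; adjusted p = 0.0296), 1 of 44 where 2.9% of all genes were called lower, and edgeR called 0. In non-neuronal wells 20 of 44 were lower and 1 higher by limma, near the 39.4% of all genes called lower. Those with the smallest adjusted p were the protease Lonp1 (-2.66 ± 0.49, SE; adjusted p = 0.000147), the RNA-binding Lrpprc (-2.64 ± 0.50, SE; adjusted p = 0.00021), the ribosome recycling factor Mrrf (-2.60 ± 0.50, SE; adjusted p = 0.000245) and the rRNA methyltransferase Tfb1m (-2.58 ± 0.53, SE; adjusted p = 0.000452).

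Cooled and room-temperature picking were compared over the 5 preparations, each the mean of its NF-like, NP-like and TH-like levels, with sex as a covariate. The share averaged in this way was 3.22%, 1.37% and 1.42% in the room-temperature preparations (session A males, session A females and session B males) and 1.11% and 0.736% in the cooled ones (session C males and females). The groups did not overlap, but without L128 session A males fell to 1.11%. By limma 0 of 19 tested rows passed the threshold (6 had an unadjusted p under 0.05), edgeR called 0, and 1.04% of all genes were called in either direction. The median difference was -0.50 (log2) over the tested members with all plates and -0.19 without L128. mt-Rnr2 was at 8055, 2695 and 1673 RPM in the room-temperature and at 1577 and 177.8 RPM in the cooled preparations (-2.36, log2; adjusted p = 0.21). Leaving out session B gave 4 rows lower, mt-Co1, mt-Nd4l, mt-Rnr1 and mt-Rnr2. That fit had 1 residual degree of freedom, so these calls rest mainly on the spread of other genes. Leaving out the L282 well highest in mt-Nd5 gave 1, mt-Nd5 (-1.74; adjusted p = 0.0289). Temperature, session and depth cannot be told apart in this design.

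Females and males were compared within sessions A and C, over 4 preparations with 1 residual degree of freedom. The spread was moderated over genes, so the SE and p-values of this fit rest mainly on the spread of other genes. Taken by session, the female against male difference in mt-Rnr2 was -1.58 (log2) in A and -3.15 in C. By limma 2 of 18 tested rows were called lower in females, where 0.0829% of all genes were. mt-Rnr2 was at 8055 RPM in males and 2695 RPM in females of session A and at 1577 and 177.8 RPM in session C, a difference of -2.35 ± 0.29 (log2, SE; adjusted p = 6.47e-12). mt-Nd5 was at 649 and 290 RPM in session A and at 716 and 113.6 RPM in session C (-1.88 ± 0.31, SE; adjusted p = 2.92e-06). Neither call was made without L128, where the differences were -1.37 and -1.08 (adjusted p = 0.999 for both), nor by edgeR (adjusted p = 0.508 and 0.9999). Without 1 NP-like well of L282, the highest in mt-Nd5, the session C male level was 155.4 RPM in place of 716, and the sex difference in mt-Nd5 was -0.79 (adjusted p = 0.896). mt-Rnr2 without that well was at -2.11 (adjusted p = 2.65e-09). On plate L129, the 1 plate with kept wells of both sexes, the median share was 0.788% in 45 female and 0.520% in 40 male wells. In session C all female wells were on L226, so sex and plate cannot be told apart there.

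Empty and medium wells held few mitochondrial reads but not always a low share. The 32 controls had a median of 11.5 mitochondrial reads against 1686.5 in kept cells, and cells had the higher median on 10 of 10 plates. The median share was 0.605% in empty and 0.881% in medium wells, close to the 0.937% of cells, and cells had the higher plate median on 7 of 10 plates. Those 7 include L226, L227 and L228, where the control median was 0 from 2, 1 and 3 control wells. Of all 6631 mitochondrial reads in controls, 85.9% lay in 4 medium wells on L141, L142 and L282, with shares of 14.3%, 18.9%, 48.0% and 60.1%. mt-Rnr2 made up 33.1% of the control reads, mt-Atp8 20.3%, mt-Nd4 19.6% and mt-Co2 10.5%, while mt-Co1 made up 6.0%. These percentages rest on few wells. The well highest in mt-Nd4 held 1226 of its 1301 control reads, and the well highest in mt-Atp8 held 1032 of 1345. For mt-Rnr2 the highest well held 900 of 2192 and for mt-Co2 399 of 696.

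**Figure D5:**
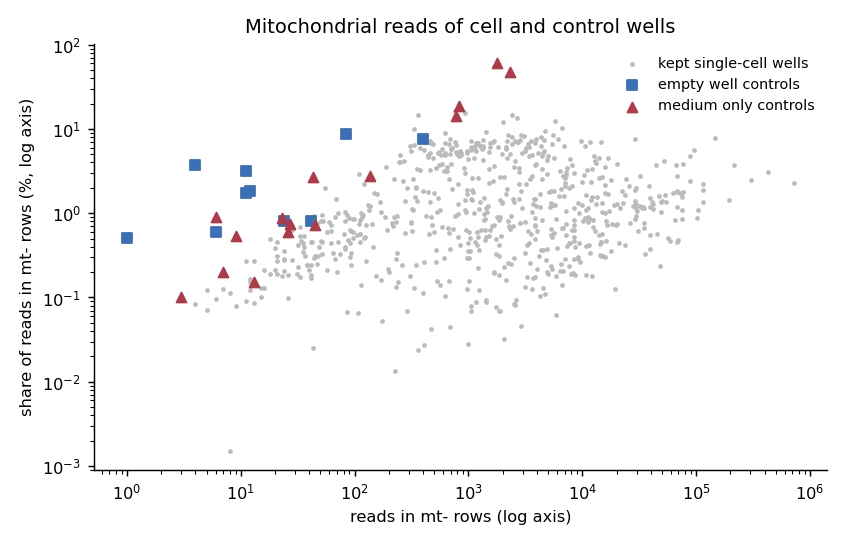
Share of reads in mt- rows (y axis, percent, log scale) against the number of such reads (x axis, log scale) for kept single-cell wells (grey), empty wells (blue squares) and medium wells (red triangles); wells with no such read, 7 of them empty wells, are not drawn. The medium wells at 18.9%, 48.0% and 60.1% lie above the highest cell (16.4%), and the one at 14.3% lies among the highest cells.

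Rows varied together from well to well. Over all pairs of the 15 ribosomal and protein rows, the Spearman correlation across the wells of a plate, taken as the median over 10 plates, ran from 0.11 (mt-Rnr1 with mt-Nd6) to 0.70 (mt-Co2 with mt-Cytb), with a median of 0.50. The wells of a plate share depth and library, so these are descriptions. The correlation of the summed share with a well's reads changed sign between plates, from -0.58 on L282 (23 wells) to 0.42 on L130 (87 wells). Of 9995 other genes, the 5 whose level most resembled the summed protein rows over 19 neuron class-by-preparation means, after each preparation's mean was taken off, were Ptprn (Pearson r = 0.89), Gap43 (0.87), Parva (0.87), Scg2 (0.87) and Kcnc4 (0.86). Without L128 their r ran from 0.85 to 0.90. Each averaged under 10 RPM in TH-like wells, for example Ptprn at 5.68 RPM there against 210 RPM in NF-like and 305 RPM in PEP-like wells.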

How the data were processed

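Single-cell 5′-end tagged libraries of 864 wells were analysed. Per the submitters' processing notes, Bowtie was used with the mm9 mouse assembly, with no version named, and the authors deposited values per row as RPM (reads per 1000000 reads). In 4 control wells the deposited values are rounded to whole numbers, and these were treated as a score. Filters, strand, duplicates and multi-mapped reads are not given in the sources used here; no molecular identifiers are named. Low RPM values step by 1 read, so whole reads were recovered in 841 of 864 columns (99.51% of values whole within 0.1 read).

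Rows split by locus were summed and 1217 repeat rows kept in the total only. Wells were clustered without mt- rows (600 variable genes, 15 components, Leiden resolution 0.8, session means removed) and named from marker lists. The settings were chosen after several trials by how many wells could be named, with mitochondrial shares by class in view. Doublets were not called: wells labelled as multiple cells (33) were left out. No 2 columns were identical.

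Mean RPM by class and preparation (3 or more wells; 22 means, 13 residual degrees of freedom) was tested with limma 3.58.1 on log2(mean RPM + 5), rows with a mean of 5 RPM or more, preparation as a block, trend and robust moderation, two-sided, Benjamini-Hochberg over all genes, threshold 0.05. A difference on this scale understates the change of low rows. edgeR 4.0.16 and DESeq2 1.42.0 on recovered read counts, computed here from the deposited RPM, were alternatives; edgeR called 487, 320, 104, 234 and 3547 genes in the NF-like, NP-like, PEP-like, TH-like and non-neuronal comparisons, 12 for cooling and 0 for sex. The fits were tested on simulated data with known changes. Every mt- row could be named with its level. With a test, at most 8 called rows per comparison and at most 4 of the machinery list were named, by smallest adjusted p, and 5 genes by likeness. Alternatives were other tools, filters, pseudocounts, blocks, clusterings and summaries, thinning to 3000 reads, and leaving out preparations, plate L128 or 1 well (the highest in mt-Tm or in mt-Nd5). The 105 single-cell wells with under 1000 genes entered no comparison. The members and lists were chosen with earlier results of these data known.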

Additional observations from a re-analysis of the deposited data

Results flagged for a closer look

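In 10 of 20 groups of 4 to 10 values, the highest or lowest value lay far from the others by Dixon's criterion. Chance alone gives about 1 in 20 only for independent, normally distributed groups. Of the 10 flags, 9 came from groups over the same plates, with rows that vary together, so they are not separate results. Over preparations, the share of NF-like wells in session A males (4.16%) stood apart from the other 4. Over plates, L128 stood apart for the median share (6.17%) and for the mean RPM of mt-Co1 (27743), mt-Co3 (2250.4), mt-Cytb (1818), mt-Nd4l (1783), mt-Atp6 (1654) and mt-Nd4 (1029.6). L282 stood apart for mt-Nd5 (3268 RPM) and mt-Nd3 (321 RPM).

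The difference between females and males had opposite signs in sessions A and C for 4 rows, each from 1 preparation per sex and session, so the difference was not tested. It was 0.22 and -0.58 (log2) for mt-Nd3, -1.70 and 0.32 for mt-Co1, 0.19 and -0.79 for mt-Atp8 and -1.38 and 0.06 for mt-Rnr1.

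Among the single-cell wells with under 1000 genes, which entered no comparison, the highest share was 78.1%, above the highest control (60.1%). Their median was 1.42%, and 5 exceeded 10%.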

How the results depend on the processing

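The summed share of each class stayed within 1 SD of its value under every alternative run. The number of called rows, with mt-Tm included where it was called, changed as follows. NF-like had 5 with medians over wells and 2 without plate L128 or with plate as the block, where all plates gave 0. PEP-like had 6 under DESeq2, at Leiden resolution 1.4 or with plate as the block, 5 when rescaled without mt- rows or without L128, 1 with no filter and 0 with no preparation block. TH-like had 3 with no preparation block. Non-neuronal wells had 22 under DESeq2, 19 under edgeR and 6 with no preparation block. For females 0 were called under edgeR, with no covariate, with no filter or without L128, and 1 without the well highest in mt-Nd5, which gave 1 for cooling. Leaving out each preparation in turn gave 0 to 1 for NF-like, 1 to 6 for PEP-like, 8 to 12 for TH-like, 10 to 13 for non-neuronal wells and 0 to 4 for cooling; for sex no residual degree of freedom was left, so it was not run. With medians over wells, non-neuronal mt-Co3 (-0.71), mt-Nd4 (-1.76), mt-Nd2 (-2.44) and mt-Nd4l (-2.79) reversed, and the calls went from 10 higher and 1 lower to 3 higher and 5 lower; the cause was not tested. The alternatives without L128, with plate as the block, at resolution 1.4 and without the well highest in mt-Tm or in mt-Nd5 were chosen after seeing the data. No paired analysis was possible because the wells' replicate numbers follow accession order and pair nothing; that holds for those numbers only, since the class fits block on preparation. Depth in session A limits low rows, and the transfer RNAs rest on few wells.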

Other observations

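Wells labelled as holding multiple cells (33) had a median mitochondrial share of 0.747%, with a range of 0.00172% to 22.4%.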
